A study of Arabidopsis thaliana with 6 samples.

Results

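Gibberellin metabolism and DELLA genes of Arabidopsis thaliana were examined in rosettes grown in ambient air or in ambient air with 3 ppm nitric oxide (NO). The genes were taken by locus and comprised 3 oxidases of gibberellin synthesis (GA20OX1, AT4G25420; GA20OX2, AT5G51810; GA3OX1, AT1G15550), 4 oxidases of gibberellin inactivation (GA2OX1, AT1G78440; GA2OX2, AT1G30040; GA2OX6, AT1G02400; GA2OX8, AT4G21200) and 2 DELLA genes (GAI, AT1G14920; RGA, AT2G01570). These 9 genes were represented by 11 of 43603 probes and were 9 of 25383 genes with a matched probe. Both groups were wild-type plants, sown in soil with sand, kept in fumigation chambers with days at 20 °C and nights at 16 °C, and sampled as whole rosette leaves at 4 weeks. Stratification was at 4 °C for 72 hours, relative humidity was 80%, and light was 300 µmol per square metre per second. Ambient air was given to one group and ambient air with 3 ppm NO to the other, for 24 hours a day until harvest, with 3 one-colour Agilent arrays per group. The submitters describe 3 independent biological experiments. The accession of the wild type and the NO content of the ambient air were not given in the sources used here, and the text numbers the arrays as their titles do.

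Gibberellins are growth hormones that promote the expansion of leaves and stems. Their last synthetic steps are carried out by 20-oxidases and 3-oxidases, and 2-oxidases inactivate the bioactive hormone or its precursors. DELLA proteins are nuclear repressors of growth. A gibberellin bound to its receptor GID1 brings a DELLA protein to an F-box protein, which marks it for degradation. In Arabidopsis the pathway is known for feedback: low gibberellin raises the transcripts of 20-oxidase, 3-oxidase and receptor genes, and high gibberellin raises those of 2-oxidase genes. Transcript levels of DELLA genes do not report the amount of DELLA protein, which is set largely by degradation.

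Values are log2 signals relative to the 75th percentile of each array, so that 0 is that percentile and a value is comparable between arrays for one probe but not between probes. The 75th percentile was 716 to 1320 signal units, and spots counted as well above background from 13.9 to 21.2 units upwards. No gene spot was saturated. Each group had a slide and a scan of its own, so slide and treatment cannot be told apart in any comparison, and p-values measure the spread between arrays of one slide. Of 5 leaf markers 5 were well above background on all arrays, and their summed level, in multiples of the 75th percentile, was 769 to 829 in ambient air and 1310 to 1723 in NO. Of 4 root hair markers, 0 could be tested. Flower markers were present: 5 of 6 were well above background on all arrays, with summed levels of 0.732 to 0.892 in ambient air and 0.918 to 0.979 in NO.

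In NO, GA2OX2 fell, while GA3OX1, GA2OX6, GAI and RGA rose. Of the 7 genes that were bright enough to be tested, all of them well above background on all 6 arrays, 4 were higher and 1 was lower at an adjusted p of 0.05 in limma. Over all 18614 tested genes 58.2% passed, with 25.8% higher and 32.4% lower, so 5 of 7 is a share of 71.4% beside a high background. The 3 arrays of one group lay wholly above those of the other in the same 5 genes, 4 above and 1 below, where 66.7% of all tested genes did so (29% above, 37.7% below). Changes of 4 of these 5 were under 1.5-fold. In absolute log2 terms 9.18% of tested genes changed by more than GA2OX2 and 21.5% by more than GAI. GA20OX2 and GA2OX8 were too dim to test. In whole rosettes fewer cells of a type and less RNA per cell cannot be told apart.

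**Figure D1:**
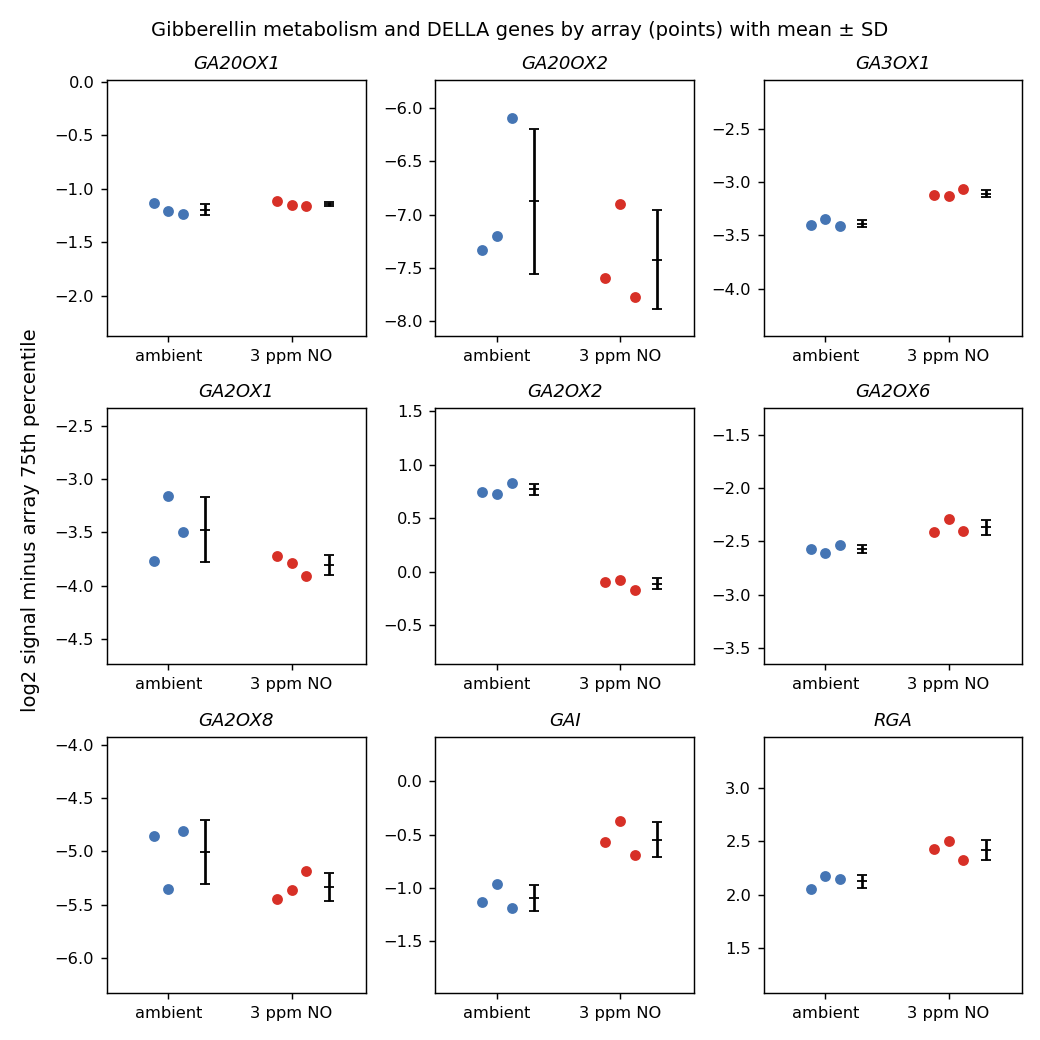
Log2 signal minus the 75th percentile of the array (vertical axis) for the 9 genes in 3 ambient arrays (blue points) and 3 NO arrays (red points), with the mean ± SD beside each group. Each panel has its own vertical range. GA2OX2 shows the widest gap between groups, from a mean of 0.77 to a mean of -0.11, and the points of GA20OX1, GA20OX2, GA2OX1 and GA2OX8 overlap between groups.

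GA20OX1 encodes a 20-oxidase that is a main contributor to gibberellin supply in growing shoots. Its log2 level was -1.14, -1.21 and -1.24 in ambient air and -1.12, -1.15 and -1.16 in NO. The groups overlapped and the values of both lay within a narrow band. The log2 change was 0.05 ± 0.05 (SE, n = 3 per group; adjusted p = 0.397 in limma), with a 95% interval of 0.955-fold to 1.13-fold, so a change of the size seen for GA2OX2 lies outside the interval. With scaling to the array median, which moved the log2 change of every gene by -0.07, the sign turned, at -0.02.

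GA20OX2, a second 20-oxidase gene with roles in stem elongation and flowering, was not well above background on any of the 6 arrays. Its signals of 5.43, 5.70 and 12.1 units in ambient air and 3.71, 11.1 and 3.84 units in NO were all below the lowest signal well above background on their array. No level or fold is given for it.

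GA3OX1 encodes the 3-oxidase that makes bioactive gibberellin in most vegetative tissues. The brighter of its 2 probes read -3.40, -3.35 and -3.42 in ambient air and -3.12, -3.14 and -3.07 in NO. All NO arrays were above all ambient arrays, and the SD within a group was 0.04 in both. In NO its transcript was 1.21-fold higher, a log2 change of 0.28 ± 0.05 (adjusted p = 0.00269 in limma). Its second probe, for the same transcript, read -3.46, -3.64 and -3.41 in ambient air and -3.20, -3.45 and -3.44 in NO. These groups overlapped, and the second probe did not pass in a fit over all probes (0.14 ± 0.10, adjusted p = 0.251; 53% of probes passed in that fit). With normexp background correction the brighter probe was at 0.12 and did not pass (adjusted p = 0.235), so the rise of GA3OX1 rests on 1 of 2 probes and on the background correction.

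GA2OX2 encodes a 2-oxidase that inactivates bioactive gibberellins. It read 0.75, 0.73 and 0.83 in ambient air and -0.09, -0.07 and -0.17 in NO. Every NO array was below every ambient array, and the gap was many times the spread within either group (SD 0.06 and 0.05). GA2OX2 was 1.84-fold lower in NO (log2 change -0.88 ± 0.05, adjusted p = 3.39e-05 in limma). Its other probe, annotated to another transcript of the gene, read -2.32, -2.31 and -2.31 in ambient air and -3.14, -3.02 and -2.84 in NO. It fell as well, by 0.69 on the log2 scale (adjusted p = 0.000697 in the fit over all probes). Over the 15 other settings tried, the log2 change lay between -0.96 and -0.79 and passed in all 15.

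GA2OX1 encodes a 2-oxidase of the same kind. Its log2 level was -3.77, -3.16 and -3.50 in ambient air and -3.73, -3.79 and -3.91 in NO. The groups overlapped through ambient array 1, and the ambient arrays were the more spread (SD 0.30 against 0.10). The log2 change was -0.33 ± 0.15 and did not pass (adjusted p = 0.0970 in limma). Without ambient array 1 it was -0.48 and passed (adjusted p = 0.0181), and without ambient array 2 it was -0.17 (adjusted p = 0.208). It also passed with quantile normalization (-0.43), cyclic loess (-0.46) and median scaling (-0.40). The 95% interval of the ratio of NO to ambient ran from 0.621 to 1.02.

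GA2OX6, a 2-oxidase gene induced by several stress regulators, moved the other way from GA2OX2. It read -2.58, -2.61 and -2.54 in ambient air and -2.42, -2.29 and -2.40 in NO. The groups did not overlap, but the difference was small, at 1.15-fold (0.21 ± 0.05, adjusted p = 0.0168 in limma), and 58.8% of tested genes changed by more. It did not pass with quantile normalization (0.15), cyclic loess (0.16) or median scaling (0.13), nor without ambient array 2 (0.19, adjusted p = 0.0536).

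GA2OX8 encodes a 2-oxidase that acts on longer-chain gibberellin precursors. It was well above background on 2 of 3 arrays in each group, at signals of 30.2, 20.5 and 29.7 units in ambient air and 16.4, 32.1 and 23.1 units in NO. Relative to the 75th percentile it read -4.86, -5.35 and -4.81 in ambient air and -5.44, -5.36 and -5.19 in NO. The groups overlapped and the gene was not tested.

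GAI and RGA encode the DELLA proteins that are the chief gibberellin-regulated repressors of rosette and stem growth. GAI read -1.13, -0.96 and -1.19 in ambient air and -0.57, -0.37 and -0.69 in NO. All NO arrays were above all ambient arrays. GAI was 1.46-fold higher (0.55 ± 0.10, adjusted p = 0.00349 in limma; 95% interval 1.24-fold to 1.72-fold), and it passed in all 15 other settings, at 0.42 to 0.62.

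RGA read 2.06, 2.17 and 2.14 in ambient air and 2.43, 2.50 and 2.32 in NO. The groups did not overlap. RGA was 1.23-fold higher (0.29 ± 0.06, adjusted p = 0.00771 in limma; 95% interval 1.10-fold to 1.36-fold). Whether GAI and RGA rose by different amounts was not tested. GAI, RGA and the RGL genes are related in sequence, and cross-hybridisation between their probes was not tested.

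**Figure D2:**
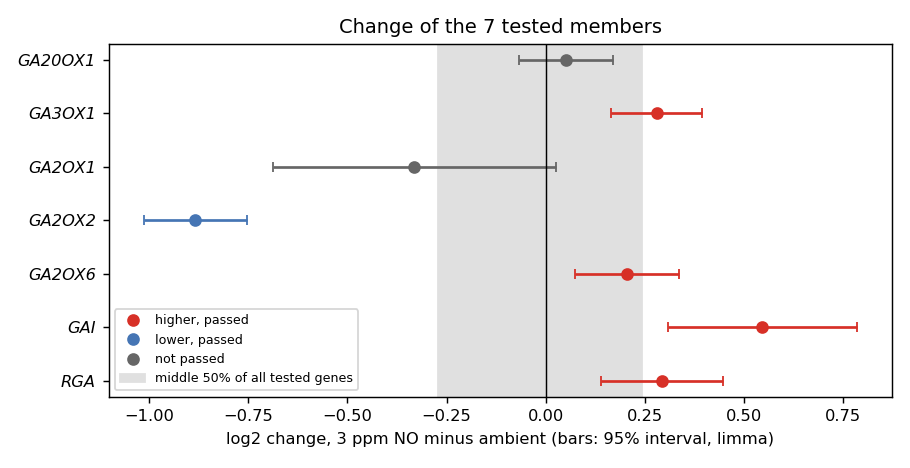
Log2 change of the 7 tested genes, 3 ppm NO minus ambient (horizontal axis), with 95% intervals from limma; red points passed as higher, blue as lower and grey did not pass. The grey band spans the middle of all tested genes, from -0.27 to 0.24. GA2OX2, at -0.88, and GAI, at 0.55, lie farthest from 0.

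The median log2 change of the 7 tested genes was 0.21, beside -0.05 for all tested genes. By role, 1 of 2 tested synthesis oxidases was called higher, GA3OX1, on 1 of its 2 probes and not with normexp. Among the 3 tested inactivating oxidases 1 was called higher and 1 lower, and both DELLA genes were called higher. Over all tested genes 25.8% were called higher and 32.4% lower. The higher call among the inactivating oxidases is that of GA2OX6, which passed in 10 of 15 other settings. With quantile normalization, median scaling or cyclic loess 0 of the 3 were higher and 2 were lower, GA2OX2 and GA2OX1. In 2 of these settings calls over the whole array also moved towards lower. Of all called genes 44.3% were higher as reported, beside 39.3% with quantile normalization and 35.0% with median scaling. With cyclic loess the share was 45.0%.

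**Figure D3:**
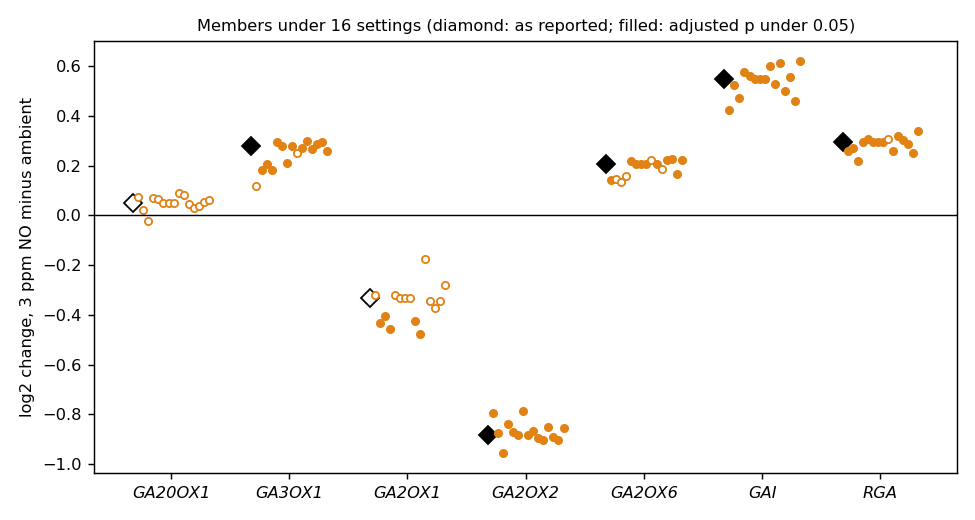
Log2 change of the 7 tested genes (vertical axis) as reported (black diamonds) and under 15 other settings (orange points), filled where the adjusted p was under 0.05. GA2OX2 and GAI are filled throughout, GA20OX1 is open throughout, and GA3OX1, GA2OX1, GA2OX6 and RGA have points of both kinds.

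For the gene of each role with the largest change that passed, profiles over the 6 arrays were set against 8353 other tested genes with a symbol, as the root mean square difference of log2 values centred on the ambient mean. The nearest to GA2OX2 was FLN1 (0.038), followed by ECT8 (0.049) and IPK1 (0.0505), with log2 changes of -0.85, -0.92 and -0.82. The nearest to GAI were LCR68 (0.065), PLP9 (0.066) and RHA3B (0.072). The nearest to GA3OX1 were J11 (0.017), CRK4 (0.020) and SKS6 (0.021). These are descriptions over 6 arrays.

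The rest of the pathway was followed in 52 further genes in 10 lists. Of these, 40 were tested: 15 were higher, 13 were lower and 12 did not pass, which is 70% called beside 58.2% of all tested genes. Their median log2 change was 0.02, beside -0.05 for all tested genes. RGL3, CYP714A1, DDF1 and GA2OX7 entered the test through 1 group only, and 3 of them were called on the side of that group, which the filter favours. Over the 36 genes that were well above background on all 6 arrays, a count added after seeing the data, 13 were higher, 12 were lower and 11 did not pass, or 69.4% called beside 58.1% of all such genes.

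Early gibberellin synthesis moved little. Of 4 tested genes 1 passed (25%), beside 58.2% of all tested genes. It was GA2 (ent-kaurene synthase), at 1.11-fold higher (0.15 ± 0.05, adjusted p = 0.0379 in limma). GA2 passed in 2 of 15 other settings and in none of those that left out 1 array. The log2 changes of GA3 (ent-kaurene oxidase), KAO1 and KAO2 (ent-kaurenoic acid oxidases) were 0.06, -0.11 and 0.11. GA1, the copalyl diphosphate synthase gene that commits precursors to the pathway, was well above background on 0 of 3 ambient and 2 of 3 NO arrays and was not tested. None of the 6 other 20-oxidase and 3-oxidase genes (GA20OX3, GA20OX4, GA20OX5, GA3OX2, GA3OX3 and GA3OX4) was well above background on any array.

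Other inactivation genes were mostly dim, with 3 of 7 tested. CYP714A1 (ELA1), a cytochrome P450 gene linked to gibberellin deactivation, was bright enough to be tested only through its NO arrays, since 2 of its 3 ambient arrays were well above background. It read -4.68, -4.61 and -5.16 in ambient air and -3.89, -3.73 and -3.72 in NO. All NO arrays were above all ambient arrays, with a log2 difference of 1.04 ± 0.15, or 0.31 with normexp. GAMT2, a gibberellin methyltransferase gene, was 1.47-fold lower (-0.56 ± 0.12, adjusted p = 0.00595). GA2OX7, a relative of GA2OX8, did not pass, at -0.39 ± 0.52, and its ambient arrays were spread widely (SD 1.04). It was at -0.98 and passed without ambient array 1 (adjusted p = 0.0340), and lay at 0.00387 without ambient array 2.

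The other DELLA genes were not uniform. RGL1 read 0.23, 0.23 and 0.33 in ambient air and 0.82, 0.75 and 0.86 in NO, a rise of 1.46-fold (0.54 ± 0.06, adjusted p = 0.000276 in limma). RGL3, a DELLA gene known for its induction by jasmonate, was well above background on 0 of 3 ambient and 3 of 3 NO arrays, which gives at least 1.38-fold higher. It was tested only through the group where it is high, on ambient values below background, so no p is given for it. With normexp RGL3 was at 0.12. For this bound each ambient array entered with the dimmest signal that counted as well above background there, or with that of RGL3 where it was higher. RGL2, known mainly for seed dormancy, was at -0.30 ± 0.06 (adjusted p = 0.00741), or -0.17 with normexp (adjusted p = 0.0788), but its dimmer probe was at 0.32 (adjusted p = 0.307) and the mean of both probes at 0.01, so its direction depends on the probe.

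Receptor genes split. GID1B read 2.55, 2.79 and 2.90 in ambient air and 1.87, 1.94 and 1.88 in NO. All NO arrays were below all ambient arrays, and the gene was 1.80-fold lower (-0.85 ± 0.09, adjusted p = 0.000395 in limma). Its second probe fell by 1.13 on the log2 scale. GID1C was 1.22-fold lower (-0.28 ± 0.05, adjusted p = 0.00356), with its second probe at -0.33. GID1A was 1.23-fold higher (0.29 ± 0.06, adjusted p = 0.00518).

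Of 4 genes acting on DELLA proteins 3 were called lower, beside 32.4% of all tested genes, and only the call of SEC passed in all 15 other settings. The 3 had log2 changes of -0.34 ± 0.06 for SEC, -0.28 ± 0.07 for SNE and -0.22 ± 0.07 for SPY. SEC and SPY encode sugar transferases that modify DELLA proteins, and SNE is an F-box gene related to SLY1. SLY1, the main F-box gene for DELLA degradation, was at -0.17 ± 0.08 and did not pass (adjusted p = 0.109 in limma). SNE did not pass without NO array 3 (adjusted p = 0.0511) or with normexp (adjusted p = 0.0608), and passed in 12 of 15 settings in all. SPY did not pass without ambient array 1, ambient array 3, NO array 1 or NO array 2, at -0.24, -0.17, -0.17 and -0.24, and passed in 9 of 15 settings in all. SLY1 passed without NO array 2 (-0.23, adjusted p = 0.0496). Of 7 transcription factor genes whose products bind DELLA proteins, 1 was called higher and 2 lower, beside 25.8% and 32.4% of all tested genes, and 4 did not pass. PIF4 was 1.28-fold higher (0.35 ± 0.05). BZR1, of brassinosteroid signalling, was 1.39-fold lower (-0.48 ± 0.04) and IDD1 1.24-fold lower (-0.31 ± 0.05). The second probe of BZR1 did not pass (-0.38, adjusted p = 0.0831).

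**Figure D4:**
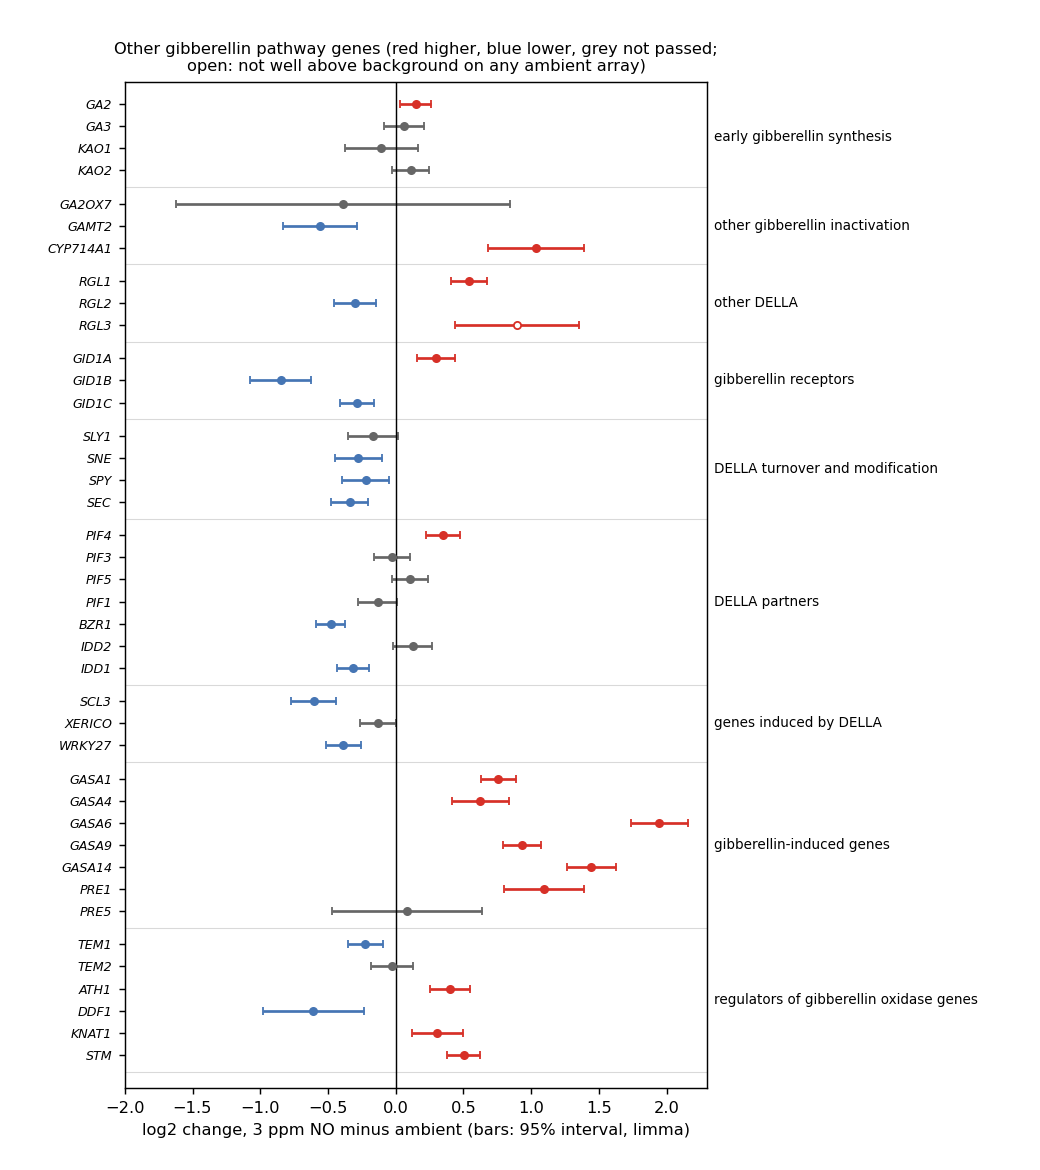
Log2 change, 3 ppm NO minus ambient (horizontal axis), of the 40 tested genes in the other gibberellin lists, with 95% intervals from limma; red passed as higher, blue as lower, grey did not pass, and the open point (RGL3) was well above background on no ambient array. CYP714A1, DDF1 and GA2OX7 were well above background on all arrays of 1 group only. The GASA and PRE genes listed as gibberellin-induced lie to the right of 0, up to 1.95 for GASA6, and the genes listed as induced by DELLA lie to its left.

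Of the 10 lists, chosen with earlier results of these data known, the genes listed as gibberellin-induced had the largest median change. They comprised 5 members of the GASA family of small cysteine-rich proteins and 2 PRE genes, which encode small helix-loop-helix proteins that promote elongation. Of the 7, 6 were called higher, beside 25.8% of all tested genes, and 0 were called lower, beside 32.4%. PRE5 did not pass (0.09 ± 0.23). The median log2 change was 0.93, beside -0.05 for all tested genes and 1.00 for the 5 leaf markers. The 6 passed in all 15 other settings.

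GASA6 read -1.01, -0.80 and -0.73 in ambient air and 1.19, 1.00 and 1.11 in NO. It was 3.86-fold higher (1.95 ± 0.09, adjusted p = 1.10e-05 in limma). GASA14 read -0.78, -1.02 and -0.89 in ambient air and 0.55, 0.61 and 0.48 in NO, and was 2.72-fold higher (1.44 ± 0.07). PRE1 was 2.13-fold higher (1.09 ± 0.12, or 0.43 with normexp) and GASA9 1.91-fold higher (0.93 ± 0.06). In each of these 4 genes every NO array was above every ambient array, as in 29% of all tested genes.

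Of 3 genes listed as induced by DELLA proteins, 2 were called lower and 0 higher, beside 32.4% and 25.8% of all tested genes. SCL3, a GRAS-family gene that antagonises DELLA proteins, read 2.16, 1.93 and 2.06 in ambient air and 1.40, 1.49 and 1.44 in NO. It was 1.52-fold lower (-0.60 ± 0.07, adjusted p = 0.000487 in limma), although its dimmer probe was at -0.09 and did not pass (adjusted p = 0.562). WRKY27 was 1.31-fold lower (-0.39 ± 0.05, adjusted p = 0.00106). XERICO, a RING-type gene of abscisic acid metabolism, was at -0.13 ± 0.06 and did not pass (adjusted p = 0.0879).

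**Figure D5:**
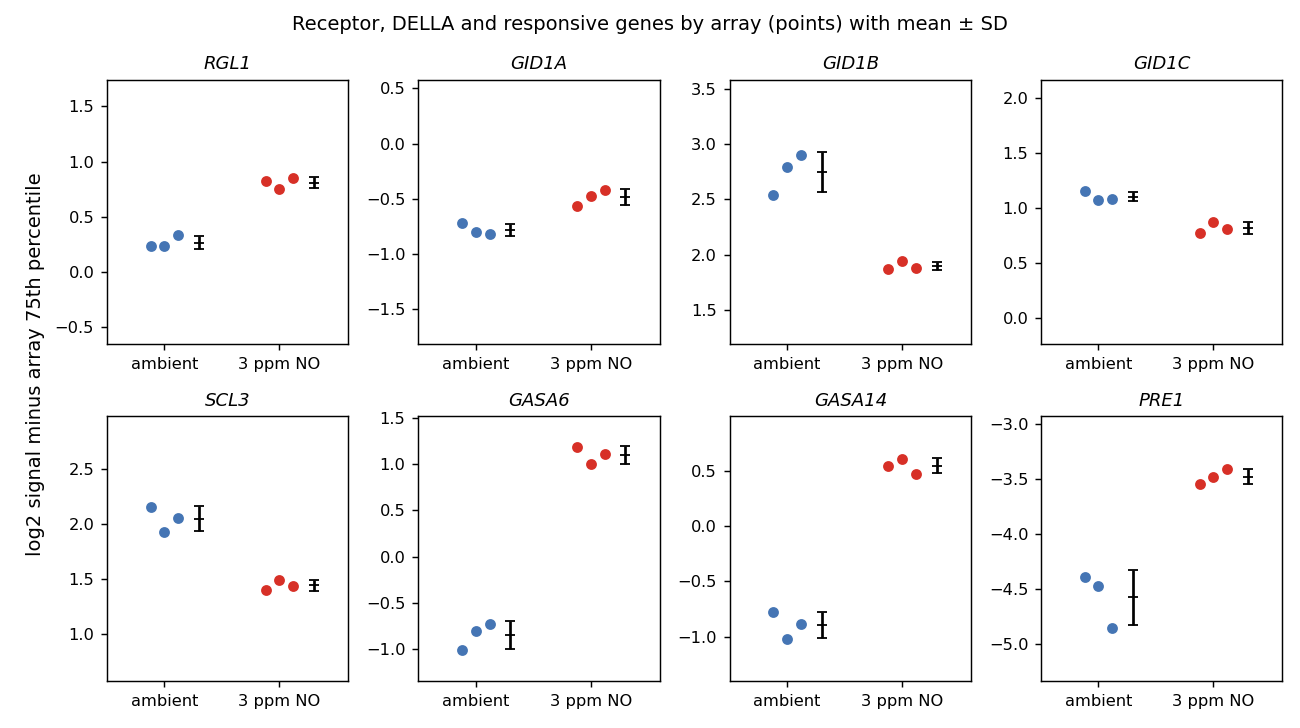
Log2 signal minus the 75th percentile of the array (vertical axis) for 8 genes of the pathway in 3 ambient arrays (blue points) and 3 NO arrays (red points), with the mean ± SD beside each group; each panel has its own vertical range. RGL1, GID1A, GASA6, GASA14 and PRE1 are higher on every NO array, and GID1B, GID1C and SCL3 are lower on every NO array.

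Of 6 tested regulators of gibberellin oxidase genes, 3 were called higher and 2 lower, beside 25.8% and 32.4% of all tested genes. STM and KNAT1 are homeobox genes of the shoot meristem; STM represses 20-oxidase genes there, and GA2OX2 is among the genes known to be expressed at the meristem base. STM was 1.42-fold higher (0.50 ± 0.05, adjusted p = 0.000266 in limma) and its second probe was at 0.81. ATH1, another homeobox gene, was 1.32-fold higher (0.40 ± 0.06), and KNAT1 was at 0.31 ± 0.08 with an adjusted p of 0.0153, or 0.0512 without ambient array 3. DDF1, an AP2-type factor that induces GA2OX7, was at -0.61 ± 0.16, and it entered the test through the ambient arrays alone, with 2 of 3 NO arrays well above background. Under normexp it was at -0.27 (adjusted p = 0.0926). TEM1, a repressor of 3-oxidase genes, was at -0.22 ± 0.05, or -0.12 with normexp (adjusted p = 0.233).

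Markers of other tissue moved beside these genes. Of 4 shoot meristem markers 3 were tested and 2 were called higher, beside 25.8% of all tested genes. These were STM and KNAT1, already counted above among the regulators of gibberellin oxidase genes. WUS was well above background on 0 of 3 ambient and 3 of 3 NO arrays and did not pass, and CLV3 was so on no array. The summed level of the 4 markers was 1.61 to 1.66 in ambient air and 2.09 to 2.31 in NO. Of 5 tested flower markers 3 were called higher, beside 25.8% of all tested genes. Their log2 changes were 0.43 for PI, 0.43 for AP3, whose groups overlapped, and 0.45 for AP1. AG and SEP3 went the other way, at -0.20 and -0.27, and did not pass. Of 5 vascular markers the xylem genes XCP2, IRX3 and XCP1 rose by 1.23, 1.00 and 0.75 on the log2 scale, while the phloem genes APL and SUC2 were at -0.32 and -0.17. The part of these tissues in the changes of the gibberellin and DELLA genes was not tested.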

How the data were processed

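Each deposited array file gives linear, background-subtracted spot intensities from Agilent Feature Extraction; its version was 10.7.3.1 in the file headers and 10.5 in the submitters' processing notes. The authors' deposited series matrix holds log2 values and served as an alternative. Processed signals were put on the log2 scale and centred, array by array, on the 75th percentile of all gene spots, with control spots left out. Spots of a probe were then averaged, without the 5 to 18 outlier spots of each array. Probes were named through their transcript accession in a RefSeq table for TAIR10.1 (34285 of 43603 matched), and a gene was its brightest probe. The file headers name an older build, so coordinates are left out. Genes well above background on all 3 arrays of a group were tested with limma 3.58.1 in R 4.3.3 (lmFit, eBayes, two-sided, Benjamini-Hochberg over 18614 genes). An exact permutation test of 3 against 3 arrays cannot go below 0.1 and was not used. For the comparison of 3 ppm NO with ambient, arrays of 18602 genes were simulated, with 50 genes shifted at each size. Of genes shifted by 0.25, 0.5, 1 and 2, 12%, 64%, 88% and 98% were recovered, and 5 unshifted genes were called. In the real comparison 58.2% of genes passed, so these shares do not carry over to it. Fits that leave out an array kept the tested genes. The normexp alternative (offset 50) used median spot and background signals. Genes and lists were chosen with earlier results of these data known. All 9 genes are named; of each other list, up to 4 members that passed with the largest change, beside members that did not pass or could not be tested, whose values complete the count.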

Additional observations from a re-analysis of the deposited data

How the results depend on the processing

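GA2OX2 and GAI kept their direction and their side of the threshold in all 15 planned settings; GA20OX1 passed in 0 of 15. RGA passed in 14 of 15, GA3OX1 in 13, GA2OX6 in 10 and GA2OX1 in 5. Scaling to the median moved the log2 change of every gene by the same -0.0728, which turned GA20OX1 to -0.0207 and GA3 to -0.0123. Apart from this shift, the cause of the following differences was not tested. GA3OX1 did not pass with normexp (0.12) or with its other probe (0.14), an alternative chosen after seeing the data. GA2OX6 did not pass with quantile normalization (0.15), median scaling (0.13) or cyclic loess (0.16), where GA2OX1 passed, at -0.43, -0.40 and -0.46, so that 2 members were lower in each of these 3 settings. Of all called genes 39.3%, 35.0% and 45.0% were higher in these 3 settings, beside 44.3% as reported. Leaving out 1 array gave 3 to 4 higher and 1 to 2 lower members, and log2 changes of -0.48 to -0.17 for GA2OX1 and 0.17 to 0.23 for GA2OX6.

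Title and source-name numbers of the NO arrays disagree, and neither paired the samples (correlations of same-numbered deviations from the group means -0.08, -0.04 and 0.05 by title, 0.02 and -0.12 by source name). The replicate block by title numbers changed no call among the 9 genes. Source name numbers 1 and 4 each belong to 1 array only. With the replicate block by source name numbers, the change therefore came from numbers 2 and 3 alone, with fewer arrays. In that fit 1 member was higher and 2 were lower. GA3OX1 (0.25), GA2OX6 (0.22) and RGA (0.31) did not pass, and GA2OX1 (-0.42) did. Over all genes 3696 were lower in place of 6033. Whether calls were lost to the numbering or to the fewer arrays was not tested. GID1A (0.29), GID1C (-0.26), GA2, SNE, SPY, TEM1 and KNAT1 also did not pass in that fit, and GA2OX7 did; GID1A and GID1C passed in the other 14 settings. Signal limits the dim genes: GA20OX2 and GA2OX8 could not be tested. Among genes near 0 or with discordant probes, signs turned for RGL2 (0.00936 as the mean of probes, 0.32 with its other probe), PIF3 (0.10 with normexp, 0.0187 with cyclic loess, 0.10 as the mean of probes, 0.23 with its other probe), PRE5 (-0.0382 with normexp, -0.0911 with quantile normalization) and TEM2 (0.0203 with cyclic loess). Leaving out 1 array gave -0.18 to 0.0254 for KAO1, -0.98 to 0.00387 for GA2OX7, -0.0515 to 0.00496 for PIF3, -0.19 to 0.30 for PRE5 and -0.0753 to 0.0303 for TEM2.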
